A study of Mus musculus with 8 samples.

Results

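Most proteins of the mitochondrion are made in the cytosol and have to be imported, cut and folded before they work. The genes described here encode that machinery, from the receptors on the outer membrane to the chaperones and proteases of the matrix. They were chosen by symbol, with no measured value in the rule, though earlier results of these data were known when the list was drawn up. The set holds every gene with a curated RefSeq mRNA whose symbol begins with Tomm or Timm, together with Immp1l, Immp2l, Immt, Samm50, Mtx1, Mtx2, Hspa9, Hspd1, Hspe1, Pam16, Grpel1, Grpel2, Dnajc15, Dnajc19, Pmpca, Pmpcb, Chchd4, Gfer, Lonp1 and Clpp. On the autosomes this gave 44 genes, out of 20021 autosomal genes with such an mRNA and 21000 genes in all. The X-linked Timm8a1 and Timm17b were left out. Because the symbol decides, the set also takes in Immt, a subunit of the complex that shapes cristae, Timmdc1, an assembly factor of respiratory complex I, and Tomm34, a cytosolic cochaperone.

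Open chromatin was measured by ATAC-seq in brown adipose tissue (BAT) of 2 WT and 2 Dot1L-BKO mice, with 1 mouse per library. All were 12 weeks old, ate chow and had spent 4 hours at 4 °C before the tissue was taken. Dot1L-BKO mice carry floxed Dot1l, which encodes the H3K79 methyltransferase, and a Cre transgene under the Ucp1 promoter, and WT mice were floxed littermates. The deletion therefore reaches only cells that express Ucp1, while the nuclei came from the whole tissue. The 2 WT and 2 Dot1L-BKO RNA-seq samples, each of pooled RNA, were not analysed here.

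The values are the authors' 32173 peak summits, 1 for each peak. Each summit has a score, the −log10 of its MACS2 q-value. The list was described as the WT libraries against the Dot1L-BKO libraries, and which of them served as treatment and as control is not known here. If 1 genotype was the control, a score measures enrichment over that genotype, and a gene equally open in both would have no summit. Scores and shares are therefore those of listed peaks, and a gene without a summit cannot be read as closed. Single libraries have no values in it, so that depth is unknown, no replicate error can be given and the genotypes could not be compared. A promoter summit is a summit within 1 kb of the transcription start site (TSS) of a curated mRNA of the gene, and distances are negative upstream of the TSS. Promoter summits were found at 7 of 7 markers of brown adipocytes and at 3 of 4 general adipocyte markers. Endothelial markers had one at 1 of 4 genes, macrophage and leukocyte markers at 1 of 4, skeletal muscle markers at 0 of 4 and markers of tissues not sampled at 1 of 4. If the list sets 1 genotype over the other, markers of cell types that the deletion does not reach could also lack summits, so that these counts do not measure which cell types the tissue held. In bulk tissue, fewer nuclei of a cell type and less open chromatin per nucleus cannot be told apart.

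Precursor proteins enter through the TOM complex of the outer membrane. Barrel proteins are then inserted by the SAM complex, carriers pass the small TIM chaperones to TIM22, and proteins with a presequence pass TIM23, pulled in by a motor built on mitochondrial Hsp70. In the matrix the presequence is cut off, the chaperonin of Hspd1 and Hspe1 folds many arrivals, and the proteases Lonp1 and Clpp remove damaged protein. BAT is known for its dense mitochondria, in which Ucp1 turns respiration into heat.

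Of the 44 genes, 38 had a promoter summit, or 86.4% (73.3% to 93.6%, Wilson interval at the 95% level for counting error alone). Among all autosomal genes the share was 46.8%. The 6 genes without one were Tomm7, Tomm20l, Mtx2, Timm8a2, Timm9 and Pmpcb. The highest scores stood at Tomm40, Immt and Timm13, and the lowest at Timm23. A promoter summit with a score of at least 10 was found at 26 of the 44 genes (59.1%), against 24.5% of autosomal genes. Within 10 kb of a TSS, 39 of the 44 genes (88.6%, interval 76.0% to 95%) had a summit, against 55.8% of autosomal genes, and the gene gained by the wider window was Tomm7.

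The sequences under the summits of 4 of the high-scoring genes are shown because these summits lay upstream of the gene, outside any annotated mRNA exon. Each is 101 bases of mm10 centred on the summit and read 5′ to 3′ on the strand of the gene. Capitals mark exact matches to short motifs on either strand, described further on.
Tomm40, chr7:19715585-19715685, minus strand: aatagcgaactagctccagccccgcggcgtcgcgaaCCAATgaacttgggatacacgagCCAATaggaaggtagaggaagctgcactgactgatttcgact
Tomm70a, chr16:57121544-57121644, plus strand: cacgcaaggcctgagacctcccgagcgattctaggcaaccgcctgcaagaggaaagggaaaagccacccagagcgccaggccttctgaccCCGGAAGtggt
Chchd4, chr6:91473579-91473679, minus strand: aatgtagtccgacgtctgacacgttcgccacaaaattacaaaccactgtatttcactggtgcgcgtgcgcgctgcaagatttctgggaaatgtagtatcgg
Grpel1, chr5:36464923-36465023, plus strand: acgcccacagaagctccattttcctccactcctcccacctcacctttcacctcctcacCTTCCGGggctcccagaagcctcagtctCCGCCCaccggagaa
The Tomm40 window held a pair of CCAAT matches. An ETS match stood in the Tomm70a window, and an ETS and an SP/KLF match in the Grpel1 window. None of the motifs searched was in the Chchd4 window, which held 9 CpG dinucleotides. The Chchd4 and Grpel1 windows cannot be given to these genes alone. On the opposite strand, Tmem43 starts 284 bp from Chchd4, and the noncoding gene 2210406O10Rik starts 331 bp from Grpel1. Both summits lay nearer to those starts than to the TSS of Chchd4 or Grpel1.

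For 3 of the 6 genes without a promoter summit, the 100 bases before the TSS of the curated mRNA are shown in the same way, since no summit was listed at them.
Mtx2, chr2:74825712-74825811, plus strand: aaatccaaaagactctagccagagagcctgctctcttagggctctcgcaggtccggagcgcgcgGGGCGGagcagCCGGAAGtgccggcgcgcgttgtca
Pmpcb, chr5:21737060-21737159, plus strand: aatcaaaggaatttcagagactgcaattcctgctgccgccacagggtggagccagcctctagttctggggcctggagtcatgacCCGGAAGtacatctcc
Tomm20l, chr12:71111328-71111427, plus strand: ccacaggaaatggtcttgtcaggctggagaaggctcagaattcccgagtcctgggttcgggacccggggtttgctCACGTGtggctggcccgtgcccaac
The same stretch of Timm9 and of Timm8a2 overlaps an exon of a predicted mRNA and is not printed. Over these 5 genes the GC content ran from 48% at Timm9 to 65% at Mtx2, and the number of CpG dinucleotides from 2 at Pmpcb to 11 at Mtx2. ETS matches stood before Mtx2, Pmpcb and Timm8a2, and the E-box before Timm9 and Tomm20l.

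The TOM complex and its relatives had a promoter summit at 7 of 9 genes, with a median highest score of 29.28. Beside this group and those that follow, the share among autosomal genes was 46.8%, with a median highest score of 10.94. Tomm40 encodes the channel of the complex. Its promoter summit had a score of 79.81, rank 126 of the list, and lay at −206 bp. Tomm40l, a relative of Tomm40, had a score of 47.29 at −107 bp. Tomm70a, a receptor for carrier precursors, had 45.46 at −120 bp, in a stretch that the genome marks as repeat sequence. The receptors for presequence proteins stood lower, with 12.79 at Tomm20 and 8.65 at Tomm22. Among the small subunits, Tomm6 had summits of 29.28 at +151 bp and 6.02 at −548 bp, and Tomm5 had 10.94 at +30 bp. Tomm7, another small subunit, had its nearest summit at −6481 bp, between genes, with a score of 9.21. For Tomm20l, a relative of Tomm20, the nearest summit lay at −18139 bp.

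In the SAM complex, Samm50, the barrel-inserting core subunit, had a score of 6.67 at −45 bp. The metaxin gene Mtx1 had 10.94 at −14 bp. The other metaxin gene, Mtx2, had no summit within 10 kb, and its nearest one lay at −121042 bp in an intron of Hoxd8.

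Small TIM chaperones carry hydrophobic precursors across the intermembrane space, and 4 of their 6 genes had a promoter summit. Timm13 stood apart from the other 3 with a score of 68.45 at +5 bp and 8 summits within 10 kb, the most of any gene in the set. Timm8b had 20.17 at +88 bp, in coding sequence, the only highest-scoring summit of the 38 that lay there. Timm10b had 8.95 and Timm10 8.65. The partner of Timm10 in the chaperone complex, Timm9, had its nearest summit at +43386 bp, and its score was 4.46. The same summit, in an intron of Arid4a on chromosome 12, was the nearest one to Tomm20l, which neighbours Timm9. Timm8a2, an autosomal relative of the X-linked Timm8a1, had its nearest summit at +70367 bp, with a score of 17.36. The study's text uses the symbols Tomm13 and Immp21, which match no symbol or synonym in the RefSeq gene table, and the values here are for Timm13 and Immp2l.

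Both genes of the TIM22 carrier translocase had a promoter summit. Timm22, the channel gene, had a score of 23.09 at +21 bp, and Timm29, a further subunit, had 9.14 at +167 bp. All 4 TIM23 genes had one too, but their scores spread widely. Timm21 had 20.97, and Timm50, the presequence receptor, had 18.76. Timm17a had 6.53, and Timm23, which gives the complex its name, had the lowest highest score of the set, with summits of 2.92 at +35 bp and 2.15 at −450 bp.

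All 7 genes of the import motor had a promoter summit, with a median highest score of 10.94, the same as the median of autosomal genes. Grpel1, a nucleotide exchange factor of mitochondrial Hsp70, had 33.34 at −212 bp, while its relative Grpel2 had 9.78 at +165 bp. Hspa9, the Hsp70 itself, had 14.22 at −298 bp. The J-protein genes Dnajc15 and Dnajc19 had 12.16 and 10.37. Pam16, a J-like regulator, had 10.94, and Timm44, which tethers the motor to the channel, had 5.07 at +134 bp. Of the disulfide relay of the intermembrane space, Chchd4, the oxidoreductase that traps small cysteine-rich precursors, had 41.01 at −206 bp. Gfer, which reoxidizes it, had 5.55 at −276 bp and 2.92 at +217 bp.

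The presequence peptidase has subunits from Pmpca and Pmpcb, and these differed. Pmpca had a promoter summit of 7.58 at −325 bp, and for Pmpcb the nearest summit lay at −20040 bp and scored 2.92. Immp1l, a subunit of the inner membrane peptidase, had 16.68 at −92 bp. Immp2l, the other subunit, had 6.02 at +227 bp in repeat-masked sequence, and this was the only summit in the whole gene, which spans 931.5 kb. Hspd1 and Hspe1, which encode Hsp60 and Hsp10, are read in opposite directions from starts 95 bp apart, and shared 1 summit with a score of 38.41. Of the matrix proteases, Clpp had 19.45 at −78 bp and Lonp1 10.05 at −213 bp. Immt had 77.71 at +330 bp in an intron of its own, Timmdc1 35.01 at −120 bp and Tomm34 20.89 at +27 bp.

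**Figure D1:**
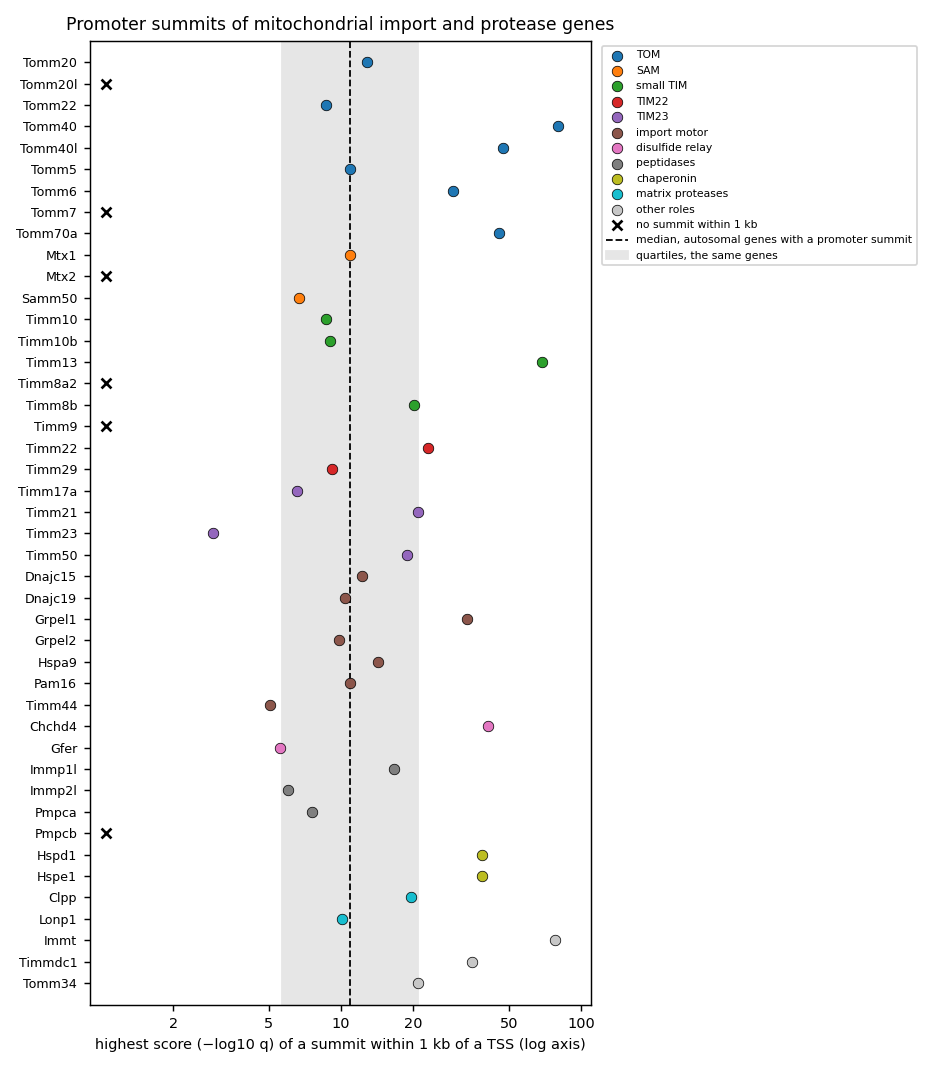
Highest score (−log10 q, log axis) of a promoter summit for each of the 44 genes, coloured by role, with crosses for the 6 genes without one. The dashed line is the median of autosomal genes with a promoter summit (10.94) and the grey band their quartiles (5.68 and 20.89). TOM genes reach from 8.65 to 79.81, and Timm23 lies lowest at 2.92.

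Among genes with a promoter summit, the highest score of each gene had a median of 13.5 in the 38 genes of the set and 10.94 in autosomal genes. The quartiles were 8.99 and 32.32 in the set and 5.68 and 20.89 in autosomal genes. Of the 38 genes, 21 lay above the autosomal median, 3 at it and 14 below it. Above the upper quartile of autosomal genes stood 13, and Timm23, Timm44 and Gfer lay below the lower quartile. Equal scores are frequent in the list, where 95.26% of summits share their score with another. The summits of Mtx1, Pam16 and Tomm5 were among 481 summits with the same score, and their order cannot be told.

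The promoter summits sat close to the TSS. The highest-scoring one lay within 100 bp of it in 19 of 38 genes (50%), against 38.1% of autosomal genes with a promoter summit. Within 250 bp were 34 of 38 (89.5%), against 70.2%. The distances of these highest-scoring summits ran from −325 bp at Pmpca to +330 bp at Immt, with a median of 97 bp without regard to side, against 143 bp in autosomal genes. Upstream of the TSS lay 21 of the 38 (55.3%), against 57.4% of autosomal genes. These 21 were outside the curated mRNAs of their gene, 12 were in untranslated exon sequence, 4 in introns and 1, at Timm8b, in a coding exon. Gfer, Timm23, Tomm34 and Tomm6 had 2 promoter summits each, 9.09% of the set against 8.45% of autosomal genes.

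Farther out, 44 summits lay between 1 and 10 kb from the TSS of 22 of the 44 genes (50%), against 29.2% of autosomal genes. Their scores were mostly low, with a median of 3.75 and a range of 2.09 to 36.09, and the 41 distinct promoter summits had a median of 10.94. Only 3 of the 44 reached a score of 10. The highest, 7.01 kb downstream of the Clpp TSS with a score of 36.09, exceeded the promoter summit of Clpp. It lay within 1 kb of the TSS of Alkbh7, which encodes a mitochondrial protein. Timm10 had a summit of 24.48 at 5.09 kb downstream, between genes, which was also above its promoter summit. Tomm34 had one of 10.37 at −2.91 kb, within 1 kb of the TSS of Stk4. Of the 44, 8 lay within 1 kb of the TSS of another gene, so that they may belong to either. A single summit within 10 kb was found at 17 genes (38.6%), against 28.4% of autosomal genes.

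**Figure D2:**
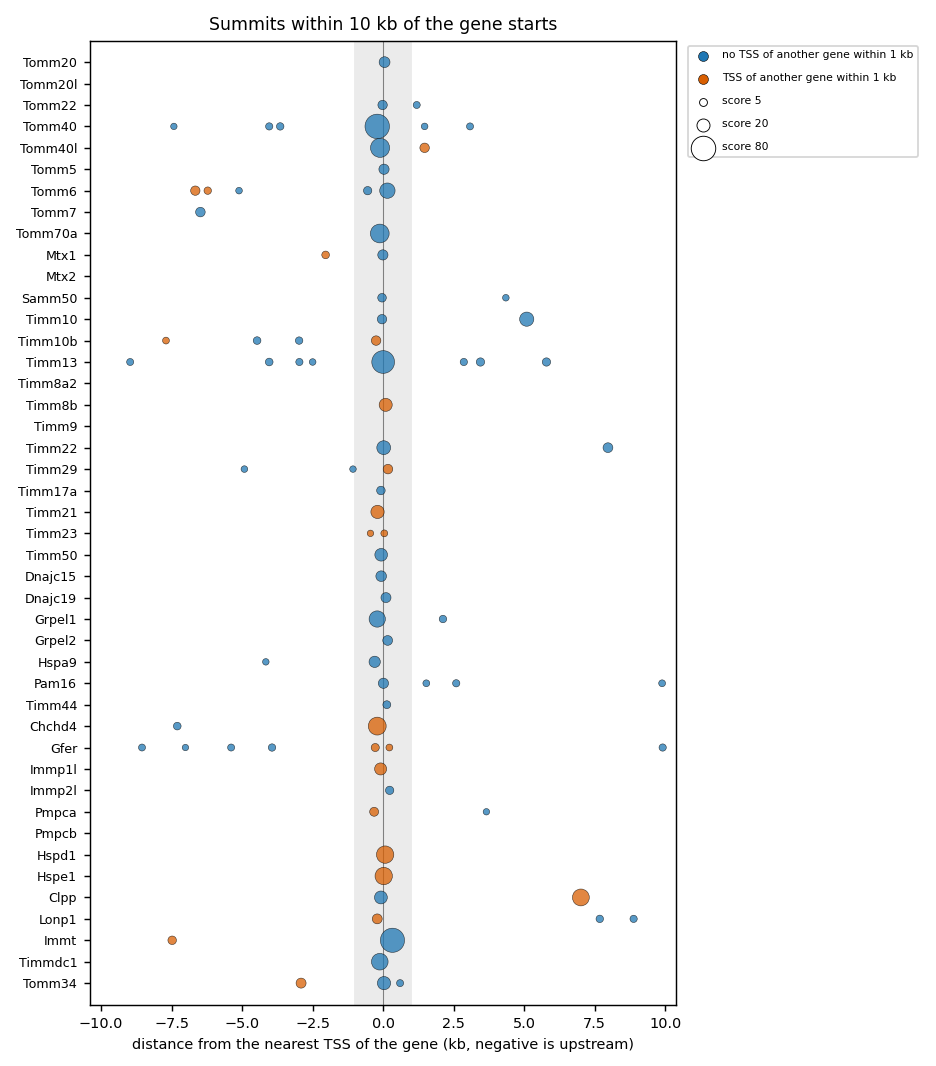
Every summit within 10 kb of the TSSs of the 44 genes, by distance from the nearest TSS of the gene (kb, negative upstream), with circle area rising with the score and orange for summits within 1 kb of the TSS of another gene with a curated mRNA. The grey band marks 1 kb on each side. Large circles stack near 0, and the large orange circle at 7.01 kb of Clpp lies within 1 kb of the Alkbh7 TSS.

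Many of these genes start close to another gene on the opposite strand, so that a promoter summit cannot always be given to 1 of them. A coding TSS on the opposite strand lay within 1 kb at 14 of the 44 genes (31.8%), against 10% of autosomal genes. In Hspd1 with Hspe1, Timm29 with Yipf2 and Tomm40l with Apoa2 the starts overlap, and the others point away from each other. The closest of these were Timm10b with Arfip2 at 29 bp, Pmpca with Entr1 at 32 bp, Timm8b with Sdhd at 52 bp, Timm23 with Parg at 58 bp, Immp1l with Elp4 at 74 bp and Gfer with Noxo1 at 78 bp. Sdhd encodes a subunit of respiratory complex II. Noncoding starts on the opposite strand were not counted for the 14 genes. They lay 59 bp from Grpel2 (1500015A07Rik), 331 bp from Grpel1 (2210406O10Rik) and 776 bp from Tomm6 (Tomm6os). The count by nearest TSS below leaves such starts out too. Of the 14 genes, 13 (92.9%) had a promoter summit, against 89.9% of autosomal genes with such a neighbour. The exception was Timm9, which starts 173 bp from 2700049A03Rik. Of the other 30 genes, 25 (83.3%) had one, against 42.0% of the other autosomal genes. When each summit was given to the nearest TSS alone, 31 of the 44 genes (70.5%) kept a promoter summit, against 42.9% of autosomal genes. Those that did not keep one were Chchd4, Hspd1, Immp1l, Lonp1, Pmpca, Timm10b and Timm29.

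Promoters rich in G and C have summits more often, and the set is slightly richer than other genes. RefSeq promoters of 300 bases, 250 before and 50 after a TSS, were matched for 39 of the 44 genes and 16010 autosomal genes. In all 39 the TSS of the table was that of a curated mRNA. The 5 not matched were Grpel2, Hspa9, Timm21, Tomm40l and Tomm7. The median GC content was 60.0% in the set and 57.0% in autosomal genes. When the matched autosomal genes were split into 3 groups of like size by GC content, 16.5% of the lowest group had a promoter summit, and 2 of 3 genes of the set did. In the middle group the share was 56.8%, and 20 of 24 genes of the set had one. In the highest group it was 71.1%, and 12 of 12 did. With 3, 24 and 12 genes, the intervals for the set are wide, from 20.8% to 93.9% in the lowest group, 64.1% to 93.3% in the middle group and 75.8% to 100% in the highest. The shares of the set were above those of autosomal genes in the same group, which was not tested. These intervals take genes as independent, though Hspd1 and Hspe1 of the highest group share 1 summit. With each summit given to the nearest TSS alone, Chchd4, Hspd1 and Pmpca of the highest group kept no promoter summit. Nor did Immp1l, Lonp1, Timm10b and Timm29 of the middle group.

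**Figure D3:**
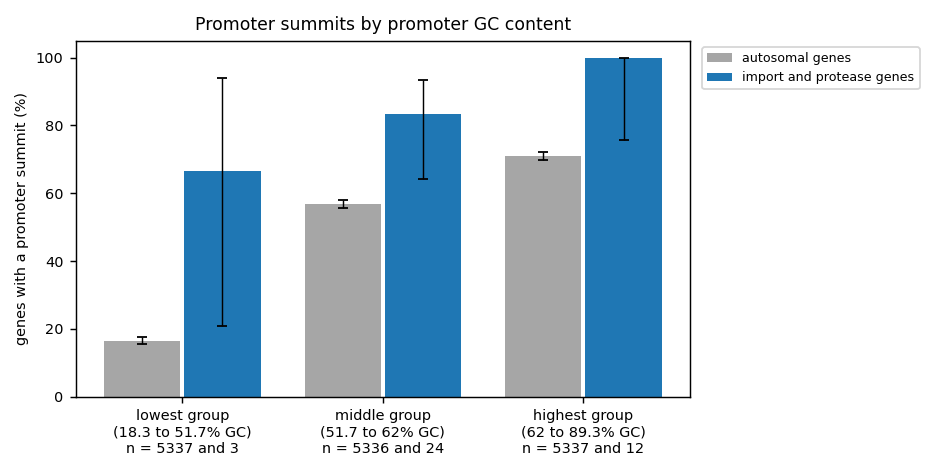
Share of genes with a promoter summit (%) by promoter GC content, with genes split into 3 groups of like size, for autosomal genes (grey) and the genes of the set (blue), with 95% Wilson intervals for counting error and n below each pair. The set stands at 66.7%, 83.3% and 100%, and autosomal genes at 16.5%, 56.8% and 71.1%.

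Short motifs were searched on both strands of the same promoters. ETS sites, spelled CCGGAAG, were found in 18 of the 39 promoters (46.2%), against 12.5% of the 16010 promoters and 21% of the 7706 promoters of genes with a promoter summit. There were 31 such matches, of which 19 stood in the 100 bases before the TSS, and 9 genes had at least 2. Overlapping matches on the 2 strands were each counted, at Hspe1, Timm10, Timmdc1 and Tomm22, so that matches outnumber separate sites. The 2 matches of Hspe1 are such an overlapping pair. Tomm22 is shown as an example. Its 100 bases before the TSS read as follows.
Tomm22, chr15:79670768-79670867, plus strand: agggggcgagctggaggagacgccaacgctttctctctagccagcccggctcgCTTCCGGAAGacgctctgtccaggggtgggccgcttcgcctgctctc
Genes of the set with an ETS match had a promoter summit at 15 of 18 (83.3%), against 80.8% of the 1999 autosomal genes with a match. Those without a match had one at 19 of 21 (90.5%), against 43.5% of the 14011 autosomal genes without. Mtx2, Pmpcb and Timm8a2 had the match and no promoter summit. A match is a run of letters and does not show that a factor binds there.

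For the other motifs the shares are given for the set, for all promoters and for promoters of genes with a promoter summit. SP/KLF sites, GGGCGG, were in 24 of the 39 promoters (61.5%), against 48.3% and 68.6%. CCAAT, the NFY box, was in 13 (33.3%), against 39.0% and 40.0%. The ERR half-site AAGGTCA was in 4 (10.3%), against 3.92% and 3.06%. The E-box CACGTG was in 6 (15.4%), against 8.09% and 10.7%, and the YY1 motif AAGATGG in 5 (12.8%), against 6.43% and 7.45%. NRF1, a known regulator of nuclear genes for mitochondria, had its core GCGCATGC in 2 promoters, those of Grpel1 and Timm13 (5.13%), above the 3.75% of all promoters and below the 6.36% of those with a promoter summit. CREB/ATF sites, TGACGT, were in 3 (7.69%), against 8.99% and 13.6%. The letters of the TATA box, TATAAA, were in 3 (7.69%), below the 13.3% of all promoters and above the 5.88% of those with a promoter summit. The matches began at −157 in Dnajc19, −204 in Timm13 and −240 in Tomm5, all farther from the TSS than a TATA box is known to work. The heat shock element GAANNTTC was in 2 (5.13%), against 7.13% and 5.63%. The CHOP/ATF4 composite TGATGNAA and the C/EBP palindrome TTGCGCAA were in 0 of the 39, where all promoters had 3.34% and 0.212% and those with a promoter summit 1.99% and 0.311%.

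**Figure D4:**
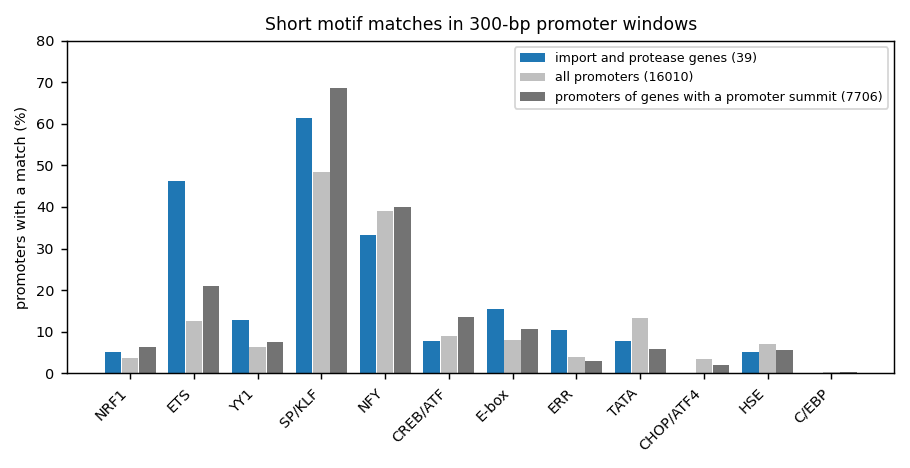
Share of promoter windows of 300 bp with at least 1 match to each motif (%), for the 39 matched genes of the set (blue), all 16010 promoters (light grey) and the 7706 promoters of genes with a promoter summit (dark grey). ETS matches stand at 46.2%, 12.5% and 21%.

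Genes that work beside the set were looked at by the same rule. They were 38 autosomal genes for other mitochondrial proteases and proteins grouped with them, insertion and assembly factors, cristae subunits, stress regulators and outer membrane pores. Of the 38, 36 (94.7%) had a promoter summit, against the same 46.8% of autosomal genes. All 9 genes grouped with the inner membrane proteases had one. That group takes in Phb, Phb2 and Stoml2, which do not encode proteases, and Htra2 of the intermembrane space. All 10 insertion and assembly genes, all 4 cristae subunit genes and all 3 pore genes had one too. So did 5 of 6 genes grouped with the matrix proteases and peptidases, Lactb of the intermembrane space among them, and 5 of 6 stress regulators. Those without were Mipep, an intermediate peptidase of the matrix, and Ddit3, which encodes CHOP. The highest scores were 71.5 at Vdac1, a pore of the outer membrane, 54.73 at Atf4, a transcription factor of the stress response, and 49.22 at Pitrm1, a peptidase that degrades cleaved presequences.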

How the data were processed

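Reads were aligned by the authors to mm10 with BWA, and peaks were called with MACS2 2.1.1 in ATAC mode (q-value cutoff 0.05, fold enrichment cutoff 2.0). The authors' deposited list gives 1 position and the −log10 of the q-value for each peak, and 0 columns of per-sample values. Any shift of reads for Tn5 and the treatment of multi-mapped reads are not given in the sources used here. Either could move a summit by some bases or change which repeats carry one.

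From the list, summits were assigned to every gene with a TSS within 1 kb or 10 kb, using curated mRNAs of the RefSeq annotation of GRCm38.p6, the mm10 build. Promoter sequences, motifs and GC content came from the RefSeq promoter table and genome of that build. Wilson intervals are at 95%. No test was made, since the list holds no values for the replicate libraries. Genes were named by the rule that all members of the set are described. The assignment was tested on simulated data. The members, marker, pathway and motif lists were chosen with earlier results of these data known. Tools were pysam 0.24.0, scipy 1.17.1, pandas 2.3.3, numpy 2.4.6, matplotlib 3.10.9 and Python 3.11.15.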

Additional observations from a re-analysis of the deposited data

How the results depend on the processing

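The number of genes of the set with a promoter summit was 38 with summits within 500 bp merged, with all annotated mRNAs, with windows of 500 bp or 5 kb counted as promoter, and with GENCODE M21 transcripts, a choice made after seeing the data. It was 37 at a score of at least 5, 26 at a score of at least 10, 32 in a window from 1 kb upstream to 100 bp downstream, and 31 with each summit given to the nearest TSS only. Without Immt, Timmdc1 and Tomm34 it was 35 of 41. None of these settings gave a promoter summit to Tomm7, Tomm20l, Mtx2, Timm8a2, Timm9 or Pmpcb. Summits within the promoter window numbered 25 at a score of at least 10 and 65 in a window of 5 kb, against 41, and summits within 10 kb numbered 47 at a score of at least 5 and 28 at a score of at least 10, against 85. The share of autosomal genes was 37.5% at a score of at least 5, 24.5% at a score of at least 10, 48.2% with all annotated mRNAs, 42.9% in 500 bp, 51.8% in 5 kb, 36.4% with no more than 100 bp downstream counted and 42.9% with the nearest TSS only, the last added after seeing the data, against 46.8%. The median highest score stayed between 13.5 and 20.93, the upper value with the score minimum of 10, which removes low scores by construction. No paired analysis was possible because the summits carry 1 score each and nothing for single libraries, and for the same cause no library could be left out. Depth is unknown, and a gene without a summit may hold open chromatin below the cutoff, or, if 1 genotype was the control, be equally open in both.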

Other observations

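Tomm20l and Timm9 lie in a stretch of 503 kb on chromosome 12 that holds no summit, from the one in the Arid4a intron to the next. TSSs of curated mRNAs of 4 genes fall in it, those of 2700049A03Rik and Dact1 besides these. Timm9 is a small TIM chaperone gene, and its complex partner Timm10 had a promoter summit of 8.65. Why the stretch holds no summit was not tested.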
